A study of Arabidopsis thaliana with 9 samples.

Results

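A set of 113 probe sets, of 22746 measured, had moderately lower signal in both the receptor mutant and the ligand double mutant than in wild-type inflorescence tips. A probe set entered when its mean log2 signal was at least 0.8 below the wild-type (WT) mean in er-2 and in epfl4 epfl6, when the epfl4 epfl6 change stayed above −2, and when all 6 mutant arrays lay below all 3 WT arrays. These conditions were met by 119 probe sets. BGLU28, EXLA1, HAT2, ARL and TBL38 were left out by name, and AT1G16260 because it lies on upper chromosome 1 and its change in epfl4 epfl6 was less than 50% of that in er-2. Of the 113 members, 48 were annotated with 1 gene, 4 with several genes, and 61 were not listed in the annotation and are given only by probe set. The same conditions turned to rises were met by 125 probe sets, and 28 met them with a fall of 2 or more in epfl4 epfl6. Because the members were selected on the 2 comparisons with WT, their differences from WT are descriptions and carry no test.

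The plants were Arabidopsis thaliana of the Col-0 background at an age of 33 days after germination, grown on soil in continuous light without treatment. Developing inflorescence tips, called flower buds in another label, were taken from WT, from er-2, an allele of ERECTA described as allelic to er-106, and from the double mutant epfl4 epfl6, with 3 biological replicates of each genotype. The labels name neither the alleles of the double mutant nor how many plants went into a sample. A sample of whole tips cannot tell fewer cells of a type from less RNA per cell.

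ERECTA is a receptor-like kinase with leucine-rich repeats in its outer domain, and EPFL4 and EPFL6 are secreted cysteine-rich peptides that bind it and promote growth of the inflorescence stem and pedicels. Plants carry many further receptor-like kinases, many of which sense pathogen molecules or cell wall damage at the cell surface. A second layer of sensing lies inside the cell, where nucleotide-binding resistance proteins detect pathogen effectors; those with a TIR domain at the start form one large class.

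Over all probe sets, Pearson's r was 0.9945 to 0.9973 for pairs of arrays within a genotype and 0.9816 to 0.9907 for pairs between genotypes. For the actin, GAPDH and ubiquitin control transcripts the log2 signal at the 3′ end minus that at the 5′ end was 2.45 ± 0.138 (SD, n = 3) in WT, 2.13 ± 0.081 in er-2 and 1.67 ± 0.0507 in epfl4 epfl6 (exact permutation test over 280 groupings, p = 0.00357, the smallest it can give). The excess of 3′ over 5′ signal, an index of RNA quality, was smaller in both mutants than in WT, a smaller excess meaning less loss of 5′ signal. The part of this index in the members' values was not tested. ER, EPFL4 and EPFL6 were not analysed here, so the data gave no check of the genotypes.

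On the log2 scale the members' change ran from −2.63 to −0.82 in er-2, with a median of −1.05, and from −1.91 to −0.82 in epfl4 epfl6, with a median of −1.19. The medians over all probe sets were 0.01 and −0.00. On the linear scale the median member kept 48.4% of its WT signal in er-2 and 43.7% in epfl4 epfl6. A loss of at least 2-fold was seen for 67 members in er-2, for 90 in epfl4 epfl6 and for 59 in both. Among all probe sets such a loss was seen for 0.827% in er-2, 1.58% in epfl4 epfl6 and 0.536% in both. The selection required falls of at least 0.8, so these counts are read for nothing beyond the description. All 113 passed an adjusted p of 0.05 in limma as lower in er-2 and as lower in epfl4 epfl6, which follows from the same selection. Among all probe sets limma called 9.01% lower in er-2 and 16% lower in epfl4 epfl6.

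**Figure D1:**
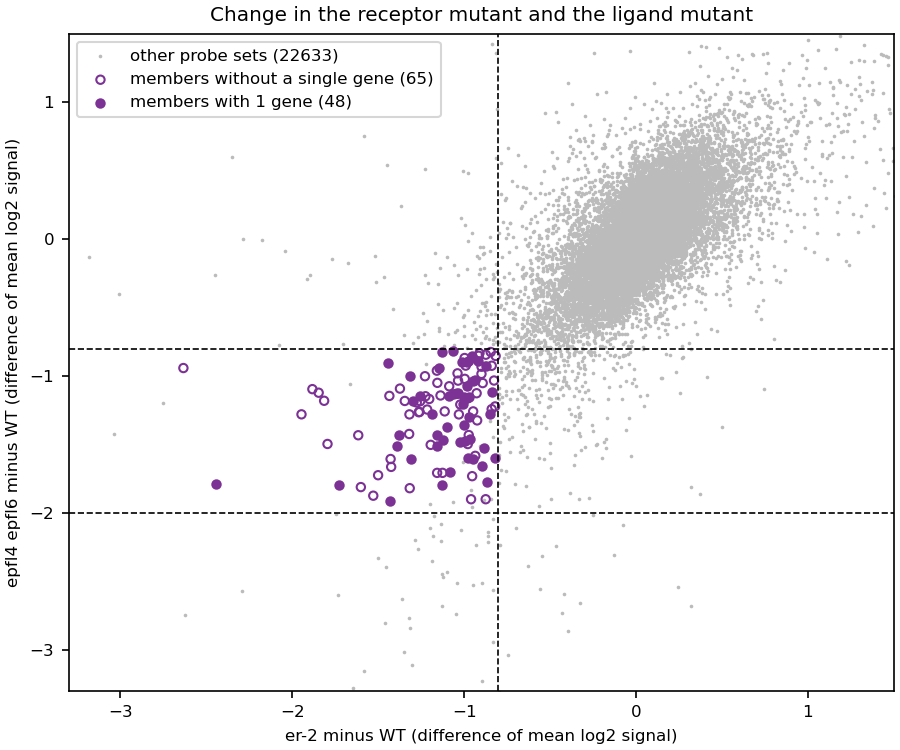
Difference of mean log2 signal from WT in er-2 (horizontal axis) and in epfl4 epfl6 (vertical axis) for each probe set, with dashed lines at −0.8 and −2. The 48 members with 1 gene and the 65 others lie in the lower left field, between −2.63 and −0.82 in er-2; 106 probe sets fall outside the axes.

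Most members had an intermediate signal. Their WT means ran from 3.61 to 12.22 with a median of 6.78, against a median of 5.88 over all probe sets. In WT, 75 members lay between the lower and upper quartile of all probe sets and 38 above the upper quartile. In at least 1 mutant, 7 members had a mean below the lower quartile of every array of that genotype (array quartiles, 3.22 to 3.33): AT1G22890, AT1G26710, AT5G49260, AT2G20970, AT1G23650, AT1G13670 and AT1G51620. Signal over background was not tested for them, so the sizes of their changes are fitted values. The gap between the lowest WT array and the highest mutant array had a median of 0.65 and ran from 0.06 to 1.37.

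Close to the borders of the selection the values ran on without a break. AT5G49260, at −0.82 in er-2, was just inside, and AT1G23390, at −0.795, just outside. In epfl4 epfl6, AT3G46110 at −0.82 was inside, whereas CLE44 at −0.78 and AT2G43590 at −0.79 were outside. At the lower border AT5G39020 was inside at −1.91, and AT2G24160 at −2.01 and the subtilase gene SBT5.4 at −2.02 were outside. AT1G26710 separated the mutants from WT by 0.08, and AT4G04760 was left out because its arrays overlapped by 0.03.

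Protein kinases formed the largest class among the 35 named members for which a role is known: 9 were kinases. Of these, 5 were classed here as receptor-like kinases with an outer domain, 4 of them with leucine-rich repeats, as in ERECTA itself. For the other kinases an outer domain was neither assigned nor excluded. Classes were assigned from background knowledge with the values in view, and the share of kinases among all measured genes was not computed. AT5G39020, a receptor-like kinase with a malectin-like outer domain, had log2 signals of 6.0, 5.71 and 6.05 in WT, 4.30, 4.05 and 5.09 in er-2, and 4.23, 4.28 and 3.50 in epfl4 epfl6. Its changes of −1.43 and −1.91 left 37.0% and 26.5% of the WT signal, the lowest level in epfl4 epfl6 among all members. AT5G25930, with leucine-rich repeats, read 5.79, 5.58 and 6.08 in WT, 4.16, 4.50 and 4.87 in er-2 and 4.51, 4.19 and 3.93 in epfl4 epfl6. The mutants overlapped for both genes.

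AT4G08850 encodes a leucine-rich repeat receptor-like kinase that perceives endogenous peptides in immunity. It had log2 signals of 7.43, 7.42 and 7.59 in WT, 6.45, 6.31 and 6.70 in er-2, and 6.06, 6.09 and 5.86 in epfl4 epfl6. The 3 genotypes were fully apart, with er-2 in the middle. AT1G51805, of the same broad family, had the same order, with 7.70, 7.41 and 7.57 in WT, 6.49, 6.37 and 6.44 in er-2, and 6.01, 6.02 and 6.25 in epfl4 epfl6. AT1G53430, also with leucine-rich repeats, was at 7.32 ± 0.104 (SD, n = 3) in WT, 6.31 ± 0.249 in er-2 and 6.42 ± 0.141 in epfl4 epfl6, with overlapping mutants. It was the only kinase of the 9 with the larger fall in er-2, against 40 of the 113 members. The selection partly set such splits, so this is not read as a trait of the kinases.

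The other kinases were 4 in number. AT1G66880 was at 6.85 ± 0.305 in WT, 5.47 ± 0.351 in er-2 and 5.42 ± 0.0748 in epfl4 epfl6 (SD, n = 3). AT5G61560 joins a kinase domain to a U-box, the mark of a class of ubiquitin ligases, and changed by −1.0 in er-2 and −1.16 in epfl4 epfl6. AT1G16670 changed by −0.87 and −0.93, the smallest mean change of any named member. AT1G51620 started from a low WT signal of 4.07 ± 0.543 and changed by −0.97 and −1.15.

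The TIR-NBS resistance protein family contributed 3 members. AT3G04210, which has a TIR and a nucleotide-binding domain, read 6.90, 6.77 and 6.99 in WT, 5.13, 4.89 and 5.44 in er-2, and 5.49, 4.99 and 4.79 in epfl4 epfl6. It kept 30.1% of the WT signal in er-2 and 28.8% in epfl4 epfl6, and its mutant arrays overlapped. AT4G36150 and AT3G44630 have leucine-rich repeats as well. AT4G36150 changed by −0.97 in er-2 and −1.30 in epfl4 epfl6, and AT3G44630 by −0.95 and −0.86. AT5G40920, annotated as a transcribed pseudogene, changed by −0.99 and −1.07.

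**Figure D2:**
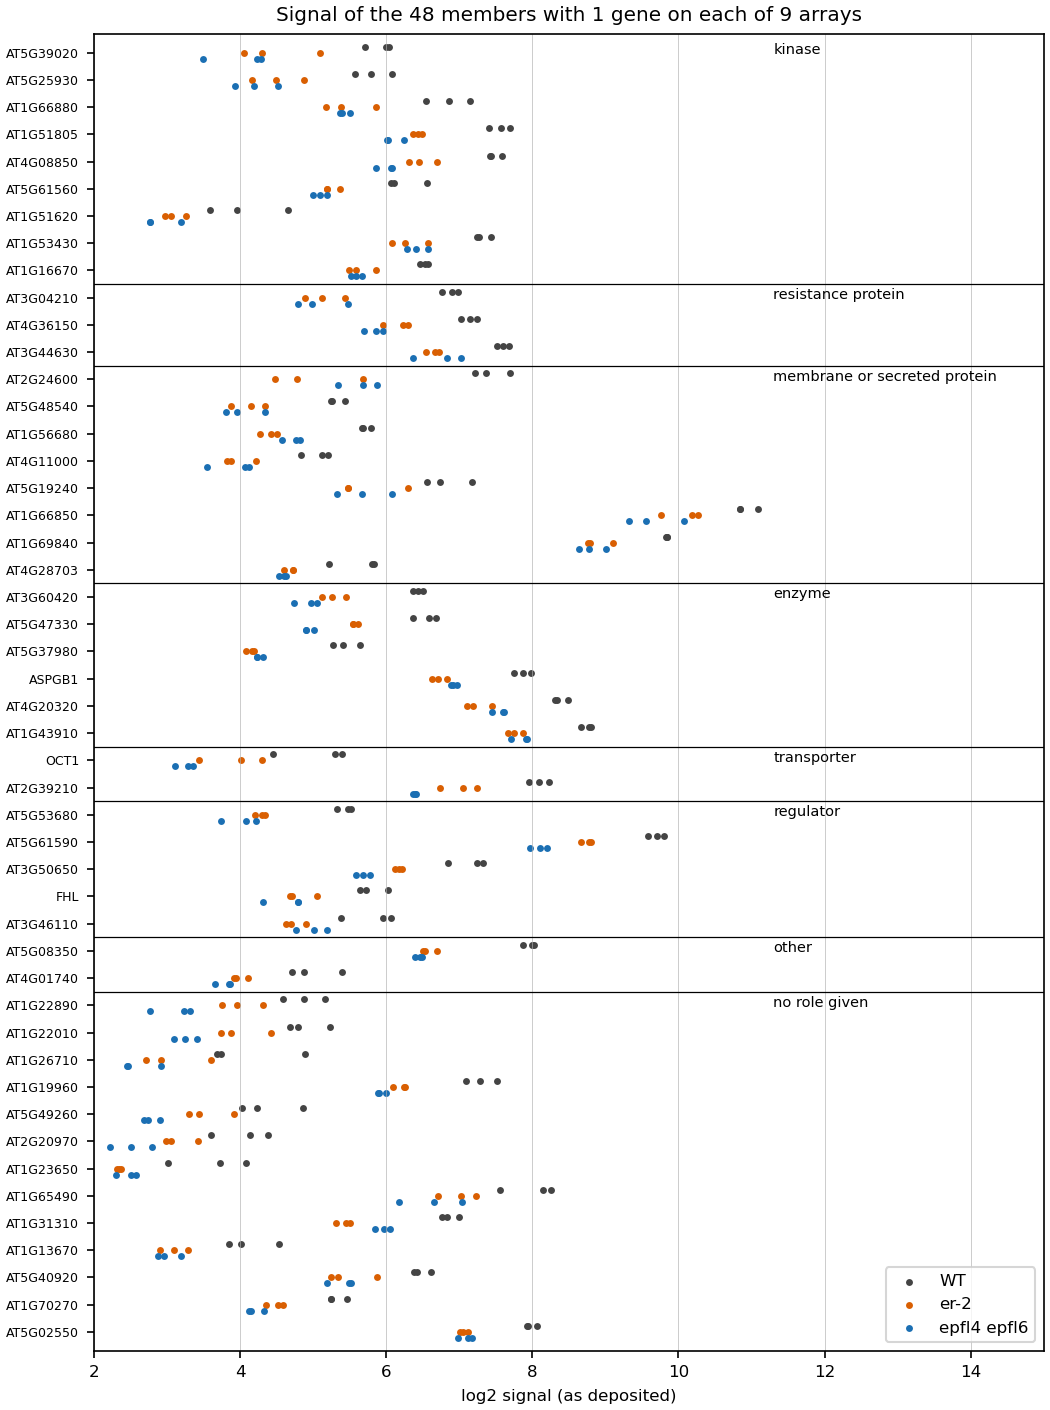
log2 signal of each of the 48 members with 1 gene on the 9 arrays, 1 point an array, with genes grouped by the class of protein and WT, er-2 and epfl4 epfl6 in separate colours. All WT points lie to the right of all mutant points; AT1G66850, a lipid transfer protein gene, is the brightest, with a WT mean of 10.93.

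Membrane and secreted proteins made up 8 members. AT2G24600, of a family of membrane proteins with ankyrin repeats, had the largest mean fall of all named members. It read 7.37, 7.22 and 7.69 in WT, 4.47, 4.78 and 5.69 in er-2, and 5.87, 5.69 and 5.35 in epfl4 epfl6. On the linear scale 18.4% of the WT signal was left in er-2 and 28.9% in epfl4 epfl6, with er-2 replicate 3 inside the range of epfl4 epfl6. AT4G11000, of the same family, was at 5.06 ± 0.193 in WT, 3.97 ± 0.216 in er-2 and 3.91 ± 0.319 in epfl4 epfl6 (SD, n = 3).

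AT5G48540, a secreted protein with cysteine-rich repeats, changed in er-2 by −1.19 and in epfl4 epfl6 by −1.28. The chitinase family gene AT1G56680, whose relatives cut fungal cell wall chitin, had signals of 5.68, 5.80 and 5.67 in WT, 4.42, 4.28 and 4.50 in er-2, and 4.77, 4.57 and 4.82 in epfl4 epfl6. Here the genotypes were apart and er-2 was the lower mutant. AT1G69840, a membrane protein with an SPFH domain, had a tight WT level of 9.84 ± 0.0089 and mutant levels of 8.89 ± 0.191 (er-2) and 8.80 ± 0.188 (epfl4 epfl6). The GPI-anchored protein gene AT5G19240 changed by −1.07 and −1.13, the cupin family gene AT4G28703 by −0.94 and −1.03, and the lipid transfer protein gene AT1G66850 by −0.85 and −1.28.

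Among 5 regulators, AT5G61590 (DEWAX) is an ERF transcription factor that represses cuticular wax synthesis. It read 9.71, 9.80 and 9.58 in WT, 8.78, 8.80 and 8.67 in er-2, and 7.97, 8.11 and 8.20 in epfl4 epfl6. The GRAS family transcription factor gene AT3G50650 showed the same order, with 6.85, 7.25 and 7.32 in WT, 6.12, 6.18 and 6.22 in er-2, and 5.69, 5.58 and 5.77 in epfl4 epfl6. For both genes er-2 lay between WT and epfl4 epfl6 without overlap. FHL, which helps carry the light receptor phytochrome A into the nucleus, read 5.73, 5.65 and 6.03 in WT, 4.72, 4.68 and 5.06 in er-2, and 4.79, 4.32 and 4.80 in epfl4 epfl6. AT3G46110, of the SOSEKI family of cell polarity proteins, changed by −1.06 and −0.82, and the RNA-binding protein gene AT5G53680 by −1.16 and −1.43.

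Enzymes made up 6 members. ASPGB1 encodes an asparaginase, which frees ammonium from the nitrogen store asparagine. It read 7.98, 7.88 and 7.75 in WT, 6.71, 6.63 and 6.83 in er-2, and 6.91, 6.89 and 6.98 in epfl4 epfl6, and er-2 lay below epfl4 epfl6 without overlap, a difference that limma did not call. AT4G20320, of the CTP synthase family, which makes a nucleotide for RNA and lipid synthesis, changed by −1.13 in er-2 and −0.82 in epfl4 epfl6. AT5G47330, of the palmitoyl protein thioesterase family, was at 6.55 ± 0.167 in WT, 5.57 ± 0.0381 in er-2 and 4.94 ± 0.0636 in epfl4 epfl6 (SD, n = 3). The dehydrogenase family gene AT5G37980 changed by −1.30 and −1.18, and the ATPase family gene AT1G43910 by −0.98 and −0.90.

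AT3G60420, of the phosphoglycerate mutase family, was the only member gene with a further probe set, and its probe sets disagreed. The member read 6.51, 6.37 and 6.43 in WT, 5.12, 5.27 and 5.45 in er-2, and 4.97, 5.06 and 4.74 in epfl4 epfl6. The other, which the selection had not used, was dim and had a WT level of 2.36 ± 0.0405 (SD, n = 3), below the lower quartile of every array. Its er-2 level differed from WT by 0.10 ± 0.0669 (SE; limma adjusted p = 0.36) and its epfl4 epfl6 level by 0.05 ± 0.0669 (adjusted p = 0.635). Signal over background was not tested for it.

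There were 2 transporters. OCT1, an organic cation and carnitine transporter, had 4.45, 5.30 and 5.40 in WT, 4.02, 4.30 and 3.44 in er-2, and 3.11, 3.36 and 3.28 in epfl4 epfl6. WT replicate 1 stood only 0.15 above the highest er-2 array. AT2G39210, of the major facilitator family, was at 8.09 ± 0.139 in WT, 7.01 ± 0.256 in er-2 and 6.39 ± 0.0233 in epfl4 epfl6 (SD, n = 3). The GRAM domain protein gene AT5G08350 had 7.87, 8.0 and 8.03 in WT, 6.51, 6.70 and 6.53 in er-2, and 6.40, 6.47 and 6.50 in epfl4 epfl6, a narrow spread in each genotype. The C1 domain gene AT4G01740 changed by −1.01 and −1.21. No role is given for 13 named members, whose changes ran from −1.44 to −0.82 in er-2 and from −1.77 to −0.89 in epfl4 epfl6.

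Of the 61 probe sets not listed in the annotation, 257506_at had the largest er-2 change of all members. It read 6.50, 5.71 and 6.21 in WT, 3.31, 3.85 and 3.36 in er-2, and 5.35, 5.10 and 5.13 in epfl4 epfl6. It was the only unlisted member whose epfl4 epfl6 change was less than 50% of the er-2 change, and without a gene it could not be placed on or off upper chromosome 1. The probe set 250007_at showed the reverse order, with 9.59, 9.44 and 9.71 in WT, 8.55, 8.67 and 8.89 in er-2, and 7.72, 7.60 and 7.72 in epfl4 epfl6. The unlisted members had median changes of −1.11 in er-2 and −1.18 in epfl4 epfl6, against −1.02 and −1.28 for those with 1 gene.

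The spread between replicates was wider for the typical member than for the typical probe set, and certain arrays recurred as the highest or lowest. The members' median SD was 0.183 in WT, 0.183 in er-2 and 0.149 in epfl4 epfl6, against 0.0894, 0.0818 and 0.0907 over all probe sets. The median member stood at −1.16, −1.14 and −0.97 relative to WT in er-2 replicates 1, 2 and 3, and at −1.13, −1.25 and −1.27 in those of epfl4 epfl6. In WT the corresponding values were −0.03, −0.08 and 0.10. Replicate 3 was the highest er-2 array for 75 of the 113 members (66.4%, against 38.5% of all probe sets), and replicate 2 the lowest WT array for 63 (55.8%, against 34.3%).

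The 12 kinases and resistance proteins showed this order most fully. WT replicate 2 was the lowest WT array for 12 of 12, and er-2 replicate 3 the highest er-2 array for 11 of 12. Without er-2 replicate 3 their median change in er-2 was −1.12 in place of −1.01. Without WT replicate 2 it was −1.15, and in epfl4 epfl6 it was −1.45 in place of −1.36. Both arrays were picked because they were the extremes for these same genes. That choice set the direction of the shifts, which are not read as a result. These genes share arrays and RNA samples, so the common order is a description of these samples and has no test.

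**Figure D3:**
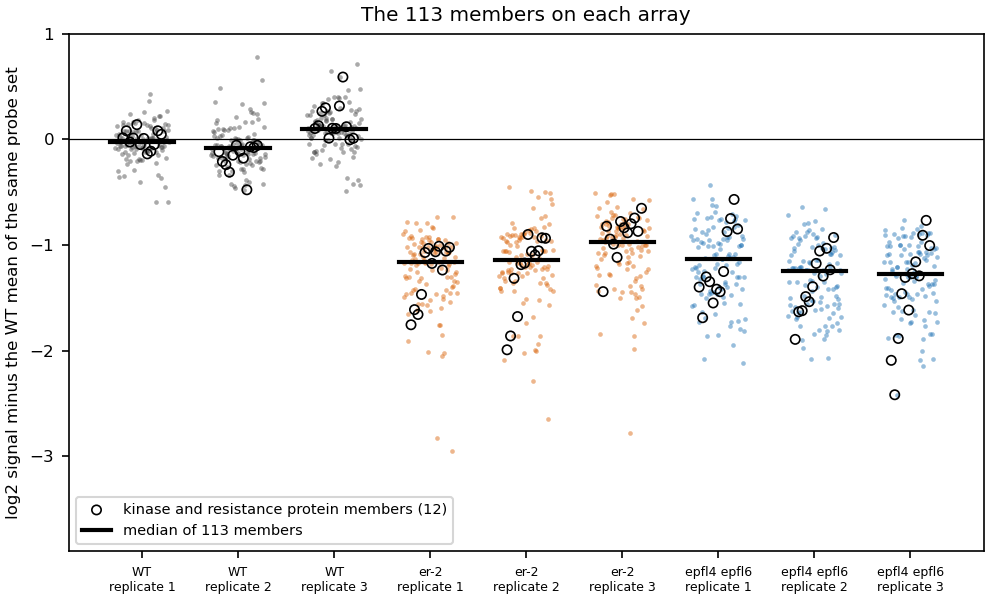
log2 signal of each of the 113 members on each array after subtracting the WT mean of the same probe set; bars are medians over the members and open circles the 12 kinase and resistance protein members. The medians lie between −0.08 and 0.10 in WT, between −1.16 and −0.97 in er-2 and between −1.27 and −1.13 in epfl4 epfl6.

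Whether a member was more strongly reduced by loss of the receptor or of the ligands was tested directly between the mutants, a comparison that the selection bears on in part. The selection held the epfl4 epfl6 change above −2 but set no lower limit on the er-2 change, so it bounded the difference only from above. The limit of −2 left out 28 probe sets that otherwise met the conditions. AT1G16260, whose difference of er-2 minus epfl4 epfl6 was −1.56, was removed for the ratio of its changes. BGLU28, at −1.61, was removed by name. The counts in both directions are therefore partly set by the selection. The fall was larger in epfl4 epfl6 for 73 members and larger in er-2 for 40, and the matching split over all probe sets was not computed. Falls of at least 2-fold were also commoner over all probe sets in epfl4 epfl6 (1.58%) than in er-2 (0.827%). The split is therefore not read as a trait of the members. In limma 19 members were higher in er-2 than in epfl4 epfl6 (10.2% of all probe sets were), and 8 were lower (10% of all probe sets were). The latter count was 5 without er-2 replicate 1 or 2 and without epfl4 epfl6 replicate 1 or 3, each left out in turn. As shares of the members these were 16.8% and 7.08%. For 86 members the difference was not called. The er-2 and epfl4 epfl6 arrays overlapped for 70 members and were apart for 43, or 38.1% (36.5% of all probe sets were apart).

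The clearest difference among named members was that of the wax repressor gene AT5G61590, which had a log2 difference of er-2 minus epfl4 epfl6 of 0.66 ± 0.0816 (SE; adjusted p = 0.000752 in limma). The thioesterase family gene AT5G47330 was higher by 0.62 ± 0.0834 (adjusted p = 0.00108, limma), and the transporter gene AT2G39210 by 0.62 ± 0.118 (adjusted p = 0.00575, limma). AT1G22890, with no role given here, was higher by 0.91 ± 0.191 (adjusted p = 0.00904, limma), with an epfl4 epfl6 mean below the lower quartile of the arrays. The receptor-like kinase gene AT4G08850 was higher by 0.48 ± 0.105 (adjusted p = 0.0105, limma) and the GRAS gene AT3G50650 by 0.49 ± 0.113 (adjusted p = 0.0132, limma). All 3 er-2 arrays lay above all 3 epfl4 epfl6 arrays for each of these 6 genes. AT1G22010, AT1G51805, AT5G49260 and AT3G60420 were called higher too, with differences of 0.76, 0.34, 0.78 and 0.36.

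In the other direction 3 named members were called. AT1G31310 was lower in er-2 than in epfl4 epfl6 by a log2 difference of −0.53 ± 0.0842 (SE; limma adjusted p = 0.00233), with signals of 6.76, 6.84 and 6.99 in WT, 5.32, 5.50 and 5.44 in er-2, and 6.06, 5.84 and 5.97 in epfl4 epfl6. The gene lies on upper chromosome 1, and its epfl4 epfl6 change was above the 50% limit. The difference of the chitinase family gene AT1G56680 was −0.32 ± 0.0843 (adjusted p = 0.0257, limma) and that of AT4G20320 was −0.31 ± 0.0947 (adjusted p = 0.0462, limma). The call of AT1G56680 was lost in 4 of 15 alternatives, each of which left out 1 array, namely replicate 1 or 3 of epfl4 epfl6 and replicate 1 or 2 of er-2 (adjusted p from 0.0108 to 0.0907 over all alternatives, limma). That of AT4G20320 was lost in 9 of 15 alternatives, the omission of any 1 epfl4 epfl6 array, of replicates 1 and 2 of er-2 in turn and of replicates 1 and 3 of WT in turn among them (adjusted p from 0.0138 to 0.148, limma).

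Among the kinases 2 of 9 were called, both higher in er-2. Of all probe sets 10.2% were higher and 10% lower, and 2 calls are too few to compare with these shares. Among the 3 resistance proteins limma called 0, with 1, AT4G36150, at an unadjusted p under 0.05. For AT3G04210 the difference between the mutants was 0.07 with a 95% interval from −0.33 to 0.46, and for AT1G66880 it was 0.05 with an interval from −0.35 to 0.46. AT5G02550 had a narrower interval, from −0.19 to 0.13 around −0.03. The test did not call these differences, which does not show that the mutants had equal levels.

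**Figure D4:**
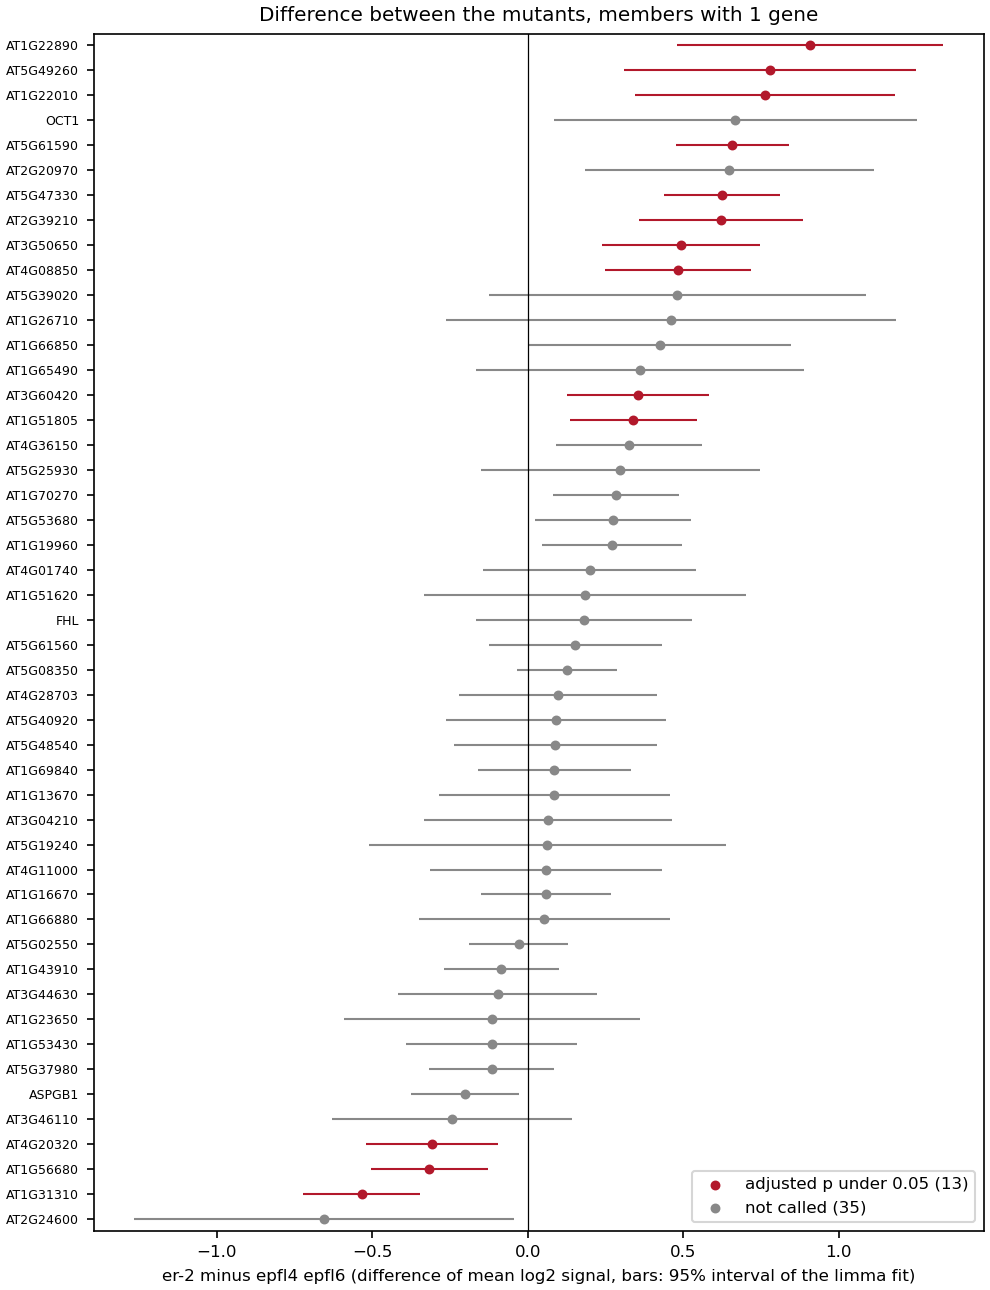
Difference of mean log2 signal between er-2 and epfl4 epfl6 for the 48 members with 1 gene, with bars for the 95% interval of the limma fit; positive values are higher in er-2. The 13 genes called at an adjusted p under 0.05 run from −0.53 for AT1G31310 to 0.91 for AT1G22890.

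The named members lay on all 5 chromosomes, with 19 on chromosome 1, 3 on chromosome 2, 6 on chromosome 3, 6 on chromosome 4 and 14 on chromosome 5. Chromosome 1 held 39.6% of them and 25.8% of the named probe sets, and chromosome 5 held 29.2% and 22.5%. These shares were 6.25% and 16.5% for chromosome 2, 12.5% and 20.5% for chromosome 3, and 12.5% and 14.7% for chromosome 4. The chromosome 1 members included genes on its upper part, where the 50% limit applied: AT1G13670, AT1G16670, AT1G19960, AT1G22010, AT1G22890, AT1G23650, AT1G26710 and AT1G31310. The distribution was not tested. No member was next to another in the order of measured named genes. AT1G66850 and AT1G66880 were 2 steps apart, as were AT5G61560 and AT5G61590. Of the 94 other genes directly beside a member, 11 (11.7%) had all 6 mutant arrays below all 3 WT arrays, against 10.4% of all probe sets. The limma calls among them were 11 lower in er-2 (11.7%, against 9.01% of all probe sets) and 18 lower in epfl4 epfl6 (19.1%, against 16%).

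Marker and pathway lists of 192 genes were set beside the members, and 31 of these genes had a named probe set, none of which was a member. That count is fixed in part by the selection, since HAT2 and BGLU28 are among the 31 and were left out by name. Of the floral markers, CLV3 and UFO, which act in the shoot and floral meristems, had low WT signals of 2.84 and 3.67, and SPT, a carpel regulator, one of 6.70. Of 5 measured tapetum and anther genes, limma called 3 lower in er-2 (9.01% of all probe sets were), and for epfl4 epfl6 it called 4 (16% of all probe sets were). Their median changes were −0.37 and −0.40, but 2 genes had changes in epfl4 epfl6 beyond the limit of −2 that the selection set for members. ATA27 was at 8.95 ± 0.696 (SD, n = 3) in WT, 6.97 ± 1.84 in er-2, which was not called, and 2.61 ± 0.224 in epfl4 epfl6, a change of −6.34 (limma adjusted p = 0.000175). SHT, an acyltransferase gene, was at 8.15 ± 0.696 in WT, 6.25 ± 1.23 in er-2 and 3.49 ± 0.314 in epfl4 epfl6, with changes of −1.90 (limma adjusted p = 0.0326) and −4.66 (adjusted p = 0.000174). Of the nuclear photosynthesis genes 3 were measured, each called higher in er-2 and also in epfl4 epfl6 (background shares of higher calls, 11.8% and 17.9% of all probe sets). The part of these shifts in the members' values was not tested.

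Of 2 measured jasmonate and defence genes, THI2.1, a thionin gene, fell by 0.99 ± 0.142 in er-2 (SE; limma adjusted p = 0.00107) and differed from WT by 0.10 in epfl4 epfl6 (adjusted p = 0.642). PDF1.2, a defensin gene, was not called in either mutant. Of the 3 clock and cold genes, limma called 0 in er-2, with 0 at an unadjusted p under 0.05, and 2 were lower in epfl4 epfl6, the clock gene GI and the cold-induced gene COR15A. Of 4 phloem genes, 1 was called higher and 1 lower in er-2, and for epfl4 epfl6 it was 2 and 1. Of 2 endodermis genes, 1 was higher in er-2, and epfl4 epfl6 had 1 higher and 1 lower. Of 4 auxin response genes, 1 was higher and 2 were lower in er-2, and 2 were lower in epfl4 epfl6, and BGLU28, the measured gene of sulfur starvation, was lower in both. The 7 measured genes of the floral identity, gynoecium, mature pollen and phenylpropanoid lists were not called in either mutant by limma, with 0 at an unadjusted p under 0.05. The lists of epidermis, xylem, cell division, heat shock, and phosphate, iron and nitrate response had no measured gene.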

How the data were processed

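Total RNA of 9 samples, 3 per genotype, was measured on 9 Affymetrix 1-colour arrays with poly(A)-primed labelling, per the labels' protocols. The deposited values are on a log2 scale, with 1 value for each probe set on each array; the authors used RMA and limma, per the submitters' processing notes, with versions not given in the sources used here. They ran from 1.74 to 13.47, were used without further normalization, and the number of arrays limits their precision. Probe sets were named through the platform annotation, with symbols updated by Entrez identifier in a RefSeq gene table (TAIR10.1, used for names and gene order only), and 64 control probe sets were left out.

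The members, classes and gene lists were chosen with earlier results of these data known. The mutants were compared with limma 3.58.1 (R 4.3.3) over all 9 arrays and 22746 probe sets, two-sided, with Benjamini-Hochberg adjustment and a threshold of 0.05. The fit was tested on simulated data. List genes were kept where the RefSeq table paired locus and symbol (190 of 192), with the brightest probe set per gene. Genes were named by a fixed rule: the 10 largest mean falls, descriptive symbols, up to 6 members per direction with the smallest p between the mutants, the probe sets nearest the borders and up to 4 genes of a list; other members were named with their class. The limma p-values set differences of genotype means against the spread between the replicate arrays of these samples.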

Additional observations from a re-analysis of the deposited data

How the results depend on the processing

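The number of probe sets that met the selection, 113, became 59 with a limit of −1 in both mutants and 274 with a limit of −0.6. It was 125 after quantile normalization again (109 shared with the 113), 108 after median centring (106 shared), 123 with genotype medians (103 shared), and between 110 and 145 without any 1 array; 125 met it when separation of the arrays was not required, a setting added after seeing the data. The 19 members higher in er-2 than in epfl4 epfl6 ranged from 15 to 22 and the 8 lower ones from 5 to 9 when 1 array was left out. The lower count was 5 without er-2 replicate 1, er-2 replicate 2, epfl4 epfl6 replicate 1 or epfl4 epfl6 replicate 3. With the replicate number as a block the counts were 23 and 6. Deviations of same-numbered arrays correlated between −0.19 and 0.29, and those of differently numbered arrays between −0.28 and 0.28. With 3 arrays per genotype these values cannot decide whether the numbers pair the samples. With array weights the counts were 24 and 10, and with a variance trend 23 and 7. On the 6 mutant arrays alone they were 20 and 7, and without the 30% dimmest probe sets 22 and 8. Of the 9 named members with full tests, 7 kept their call in all 15 alternatives; the exceptions were AT1G56680, with 4 losses, and AT4G20320, with 9, the block among them (adjusted p = 0.0819). The cause was not tested. Signal over background could not be tested in these files, which limits the sizes of the dimmest members.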
